A study of Mus musculus with 30 samples.

Results

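Peritoneal macrophages of Reversa mice, taken 6 h after lipopolysaccharide (LPS), were compared with peritoneal macrophages of wild-type mice that had received only the vehicle (WT-LPS). The 12 samples were all those labelled Reversa or WT-LPS, 6 of each, of 30 in the series. The genes were all targets of an nCounter mouse inflammation panel with a signal above 20 in at least 6 of the 30 samples, 202 of 248. The comparison asks how much of the response to LPS is reached when both cyclooxygenase genes are exchanged.

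Reversa mice carry both exchanges. From what is known of the line, COX-1, the product of Ptgs1, is there encoded at the locus of Ptgs2, and COX-2, the product of Ptgs2, at the locus of Ptgs1. They were injected intraperitoneally with LPS at 2 mg/kg. Wild-type mice received the same dose of LPS (WT+LPS, 6 samples) or an equal volume of PBS (WT-LPS, 6 samples). All mice were C57BL/6 and 12 to 16 weeks old, and the cells of every group were taken at 6 h. The extraction text of the labels calls the macrophages LPS-elicited in all groups, the PBS group included. There were no PBS-treated Reversa samples, so in Reversa against WT-LPS the genotype and the treatment differ together and cannot be told apart. The WT+LPS samples differ from Reversa in genotype and from WT-LPS in treatment, and both changes are therefore given side by side below. Both share the WT-LPS samples, and the difference between them was tested as Reversa against WT+LPS.

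LPS is recognised on the cell surface by Tlr4 with its partner MD-2. Signals through the adaptor Myd88 reach NF-kB and the MAP kinases and switch on chemokines and cytokines, while a second route reaches interferon regulatory factors, type I interferon and the interferon-stimulated genes. In macrophages LPS also induces Ptgs2, which together with the more constant Ptgs1 makes the precursor of the prostaglandins, lipids that act back on the cells through G protein-coupled receptors. Resident peritoneal macrophages of the mouse are known for high Alox15 and complement C1q.

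The counts behind the signal, estimated from the steps between low values, were 372840 to 1001816 per sample in Reversa, 485421 to 701281 in WT+LPS and 298390 to 717083 in WT-LPS. Reversa samples 55 and 56 were nearly identical, with a chi-square of 1.27 per gene (20.9 in the next closest pair, of 75 within groups). They were averaged and counted as 1 sample, which leaves 5 Reversa samples, given below in the order 51, 52, 53, 54 and 55/56. Each of 3 runs held 2 lanes of every group, always at the same lane positions, so lane position and group cannot be told apart. The authors' scaling gives Cltc and Gapdh the same geometric mean in every lane. With that mean fixed, any change of Cltc forces the opposite change of Gapdh. Cltc, a clathrin chain, had 6298 ± 245 in Reversa and 9009 ± 693 in WT-LPS, and Gapdh, a glycolytic enzyme, 10554 ± 407 in Reversa and 7402 ± 514 in WT-LPS (SD, n = 5 and 6). Of the 4 references not used for scaling, Pgk1 and Hprt were higher in every Reversa sample than in every WT-LPS sample, and Gusb and Tubb5 were lower. Only 1 of 240 negative control values exceeded 20, and where most samples of a group were under that level a bound is given instead of a fold, with those samples set to 20.

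The signal of Ptgs1 was 135, 512, 128, 119 and 308 in Reversa, and WT-LPS had a lowest of 2096, a median of 2580.1 and a highest of 3062. The groups did not overlap, with Ptgs1 13.04-fold lower in Reversa. Ptgs2 was 88.04, 282, 308, 487 and 293 in Reversa, against a lowest of 1, a median of 2.23 and a highest of 30.7 in WT-LPS, where 5 of 6 samples were under 20, which makes Reversa at least 11.95-fold higher. Exact two-sided permutation tests gave p = 0.0022 for Ptgs1, the smallest value that 5 against 6 samples allow, and p = 0.0043 for Ptgs2 (adjusted over 4 tests, 0.0043 and 0.0058). In WT+LPS, Ptgs1 had a lowest of 156, a median of 242 and a highest of 347, a range that overlaps that of Reversa (exact p = 0.66, a difference of -0.19 on the log2 scale with a 95% interval of -0.85 to 0.47). Ptgs2 had a lowest of 3719, a median of 4664 and a highest of 7007 in WT+LPS, 18.7-fold above Reversa with no overlap (exact p = 0.0022, adjusted 0.0043). Within runs 1, 2 and 3 the log2 changes against WT-LPS were -3.40, -4.21 and -3.19 for Ptgs1, and for Ptgs2 every Reversa sample lay above every WT-LPS sample. The labels do not say where the probes bind, and whether a Reversa transcript came from a native gene or an exchanged locus was not tested. LPS-treated samples of the series labelled COX-1>COX-2 had a Ptgs2 signal of 1 to 1.76, with Ptgs1 at 300 to 554. For the samples labelled COX-2>COX-1, also given LPS, Ptgs1 lay at 1 to 5.77 and Ptgs2 at 4714 to 10194. When coding sequences are exchanged the promoters stay with their loci, so the promoter regions of both loci are shown. They were taken from RefSeq (GRCm38.p6) and run from 250 bases before to 50 bases after the annotated start of transcription.
Ptgs1 promoter, chr2:36230176-36230475, plus strand: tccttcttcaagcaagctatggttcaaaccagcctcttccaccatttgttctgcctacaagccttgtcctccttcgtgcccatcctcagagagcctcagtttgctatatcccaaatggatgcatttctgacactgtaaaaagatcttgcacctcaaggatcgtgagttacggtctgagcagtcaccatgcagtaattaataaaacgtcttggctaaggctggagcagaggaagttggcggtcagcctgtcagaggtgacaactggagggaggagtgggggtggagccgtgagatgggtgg
Ptgs2 promoter, chr1:150099781-150100080, plus strand: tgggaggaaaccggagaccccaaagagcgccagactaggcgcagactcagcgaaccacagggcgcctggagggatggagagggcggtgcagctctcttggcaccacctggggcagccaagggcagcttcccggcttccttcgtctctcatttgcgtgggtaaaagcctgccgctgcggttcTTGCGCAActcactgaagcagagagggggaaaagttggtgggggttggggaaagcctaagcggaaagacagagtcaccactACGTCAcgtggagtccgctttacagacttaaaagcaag
The capitals mark TTGCGCAA, a C/EBP motif that starts 69 bases before the start of Ptgs2, and ACGTCA, the reverse strand of the cAMP response element core TGACGT, which begins at base 13 after it. Over all 32544 promoter regions of this length, 0.184% hold the C/EBP motif and 7.55% the cAMP response element core on either strand. Both motifs were chosen with the sequence in view, and neither is in the region of Ptgs1.

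**Figure D1:**
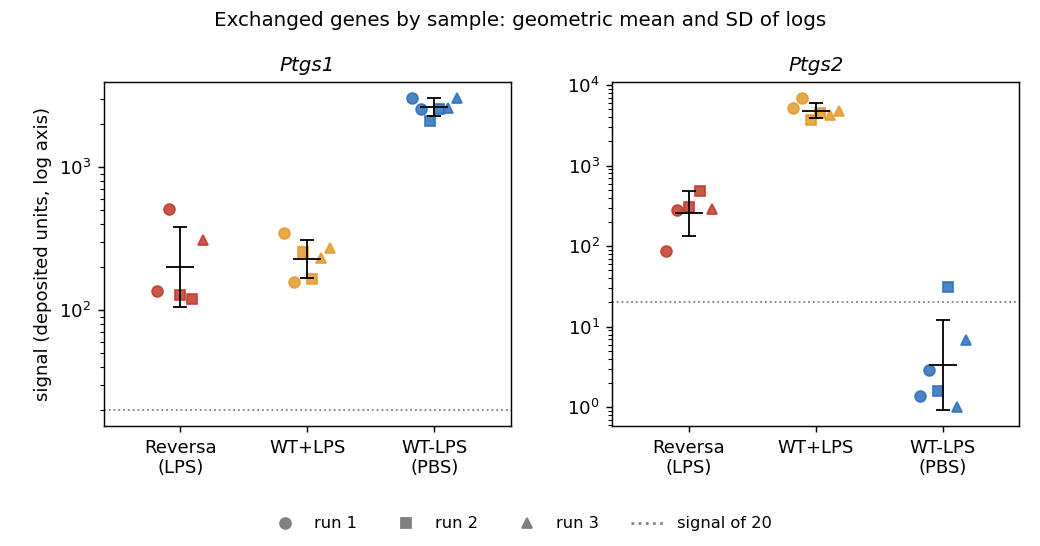
Signal of Ptgs1 and Ptgs2 (log axis) in each Reversa, WT+LPS and WT-LPS sample, with symbols for the 3 runs, bars for the geometric mean and SD of the logs and a dotted line at 20. Ptgs1 in Reversa lies at 119 to 512, beside WT+LPS and below every WT-LPS sample, while Ptgs2 in Reversa lies at 88.04 to 487, between WT+LPS and WT-LPS.

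Across the panel limma called 96 genes higher and 69 lower in Reversa than in WT-LPS, 165 of 202 tested or 81.7% (47.5% higher and 34.2% lower, Benjamini-Hochberg adjusted p under 0.05). In 123 genes (60.9%) the samples of the groups did not overlap. WT+LPS against WT-LPS gave 100 higher (49.5%) and 69 lower (34.2%), 83.7% in all. Within runs 1, 2 and 3, with 2 Reversa samples in each of the earlier runs and 1 in the last, 119, 146 and 149 genes were called in Reversa against WT-LPS. The median absolute log2 change was 1.46 in Reversa and 1.40 in WT+LPS, and 125 genes in Reversa and 121 in WT+LPS moved more than 2-fold. Of the 202 genes 24 had no WT-LPS sample above 20 and passed the filter only through other groups, so no count or median that includes them supports a direction. Among them were Areg, Ccl17, Ccl4, Ccl8, Csf2, Csf3, Cxcl10, Cxcl3, Cxcl5, Cxcr2, Flt1 and Ifng. Il10, Il13, Il17a, Il1rn, Il22, Il23r, Il5, Mef2b, Nos2 and Tlr3 also belonged to them. That such a gene was higher than in WT-LPS follows from the filter. Ccl7, Il6, Cxcl9, Maff and Hmgb2 had most WT-LPS samples under 20 and passed the filter only with LPS-treated samples. Their direction is no support either. Map2k6 and Tbxa2r exceeded 20 only in WT-LPS samples, so that they were lower in Reversa follows from the filter as well. Tested directly, 17 genes (8.42%) differed between Reversa and WT+LPS, 3 higher (1.49%) and 14 lower (6.93%) in Reversa, and in 10 (4.95%) these groups did not overlap. For 127 of the 202 genes the 95% interval of that difference lay within 2-fold in both directions, and for the other 75 it reached beyond 2-fold in at least 1 direction.

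The direction of small changes depended on the scaling. The split of 58.2% higher among the calls became 72.3% (120 higher, 46 lower) when the values were rescaled by Cltc, Gusb, Hprt and Tubb5, and 40% (70 higher, 105 lower) when the medians of all genes were set equal. For WT+LPS against WT-LPS the same rescalings gave 120 higher and 43 lower, and 74 higher and 105 lower. For Reversa against WT+LPS equal totals gave 10 higher and 13 lower in place of 3 and 14, and equal medians 4 higher and 9 lower. In Reversa against WT-LPS the median log2 change of the 202 genes was 0.33 in the values as deposited, and it shifted by 0.57 with the 4 references and by -0.81 with equal medians. Of the 165 calls 157 kept their sign with the 4 references and 153 with equal medians.

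The genes that rose most were chemokines and cytokines. Cxcl10, which attracts activated T cells, had 23730.1, 25918, 27647, 37683 and 55354 in Reversa and a lowest of 1, a median of 1.86 and a highest of 19.8 in WT-LPS, at least 1618-fold higher. Ccl7, a monocyte chemokine, was even across the Reversa samples, at 10245, 9570.0, 9992, 10883 and 10258, while WT-LPS had a lowest of 6.42, a median of 10.04 and a highest of 21.3, which makes Reversa at least 504-fold higher. Csf3, the growth factor of neutrophils, had 1291, 2346, 1685, 2147 and 4373 in Reversa and a highest value of 1.66 in WT-LPS (at least 108-fold higher). None of the 3 showed any overlap between groups. Nos2, the inducible nitric oxide synthase, was at least 192-fold higher, with Reversa at 2013 to 8240.4 and WT-LPS at 1.39 to 10.4. The other genes among the 12 of largest rise were Ccl4, Cxcl3, Ccl3, Il17a, Il22, Il1rn, Il1b and Il6, and in each of them every Reversa sample lay above every WT-LPS sample. Cxcl10, Csf3, Nos2, Ccl4, Cxcl3, Il17a, Il22 and Il1rn are among the 24 genes with no WT-LPS sample above 20. Their direction and their lack of overlap follow from the filter. Ccl7 and Il6 had most WT-LPS samples under 20 and passed the filter only with LPS-treated samples, so their direction is no support either.

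**Figure D2:**
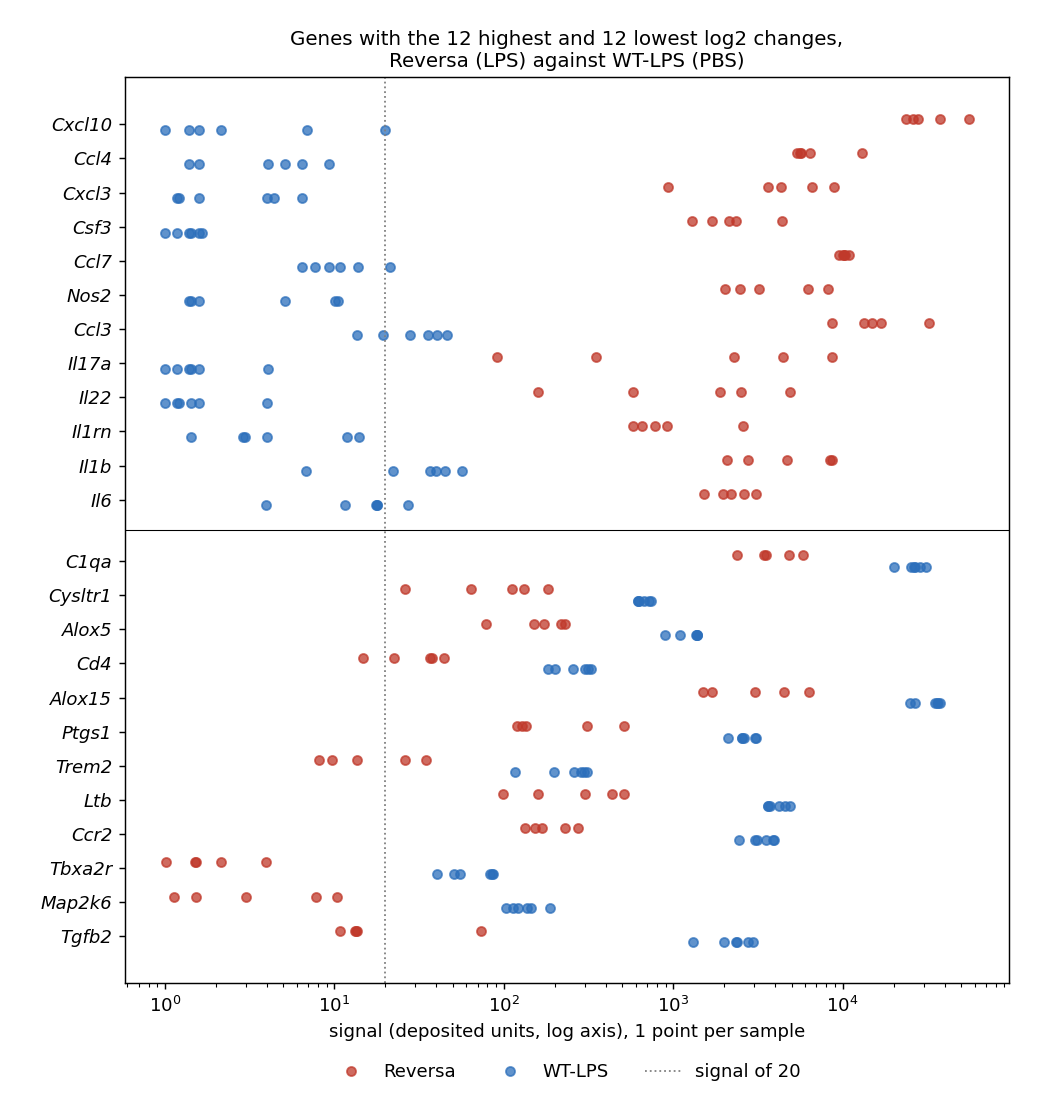
Signal of each Reversa and WT-LPS sample (log axis) for the genes of the 12 highest (top) and 12 lowest (bottom) log2 changes among those called, with a dotted line at 20. The groups do not overlap in any of the 24 genes, and Il17a has the widest range in Reversa among the upper 12, 90.6 to 8634. Cxcl10, Csf3, Nos2, Ccl4, Cxcl3, Il17a, Il22 and Il1rn had no WT-LPS sample above 20, so their lack of overlap follows from the filter. Map2k6 and Tbxa2r exceeded 20 only in WT-LPS samples, so the same holds for them. Ccl7 and Il6 passed the filter only with LPS-treated samples, so their direction is no support either.

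Of the chemokines on the panel, 5 of 5 that attract monocytes, 4 of 4 CXC chemokines that attract neutrophils and 3 of 6 that attract T cells had enough signal to be tested, and those tested were higher. Over all tested genes 47.5% were higher. Ccl4, Ccl8, Cxcl3, Cxcl5 and Cxcl10 are among the 24 genes with no WT-LPS sample above 20, so their direction follows from the filter. Ccl7 and Cxcl9 passed the filter only with LPS-treated samples, so their direction is no support either. Ccl2, another monocyte chemokine, was 122-fold higher in Reversa (22226 ± 3842 against 184 ± 47.2 in WT-LPS, SD). Ccl3, a ligand of Ccr1, was 537-fold higher (17229 ± 8990.1 against 30.5 ± 12.5), and Ccl4, a related chemokine, at least 339-fold higher. Cxcl1 and Cxcl2, ligands of the neutrophil receptor Cxcr2, were 73.2-fold and 47.6-fold higher, and Cxcl3, a further such ligand, at least 193-fold. Cxcl5 was at least 1.55-fold higher, and at least 2.37-fold without Reversa sample 51. Cxcl9 and Ccl5, which attract activated and memory T cells, were at least 28.1-fold and 11.7-fold higher, and both lay below WT+LPS. Of the 3 type 2 chemokines Ccl22 (78.9-fold) and Ccl17 (at least 4.89-fold) were higher, while Ccl24 did not pass (2407 ± 1165 in Reversa, 2031 ± 394 in WT-LPS, adjusted p = 0.85).

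Chemokine receptors moved in both directions. Ccr2, the receptor of Ccl2 and Ccl7, had 133, 169, 154, 273 and 230.0 in Reversa and a lowest of 2452, a median of 3334 and a highest of 3908 in WT-LPS, 17.6-fold lower with no overlap. Ccr1 was 2.63-fold lower. Cxcr2, which marks neutrophils, was at least 3.21-fold higher at 12.4, 40.01, 94.3, 218 and 94.2 in Reversa, against 1 to 2.37 in WT-LPS. Ccr7, which guides cells to lymph nodes, had 5631, 1505, 4309.6, 2768 and 1016 in Reversa and 999 to 2129 in WT-LPS (1.67-fold higher, adjusted p = 0.043). Its samples overlapped, and the call was lost without any one of 6 samples, Reversa 51, 53 or 54 or WT-LPS 37, 39 or 40 (adjusted p 0.0577 to 0.19). Within run 3 its log2 change was -0.91, against 1.09 and 1.39 in runs 1 and 2. Cxcr4 did not pass (427 to 2431 in Reversa, 748 to 2444 in WT-LPS, adjusted p = 0.8). The median of the 5 receptors, -0.12, turned positive under the rescaling by 4 reference genes.

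Of 7 tested genes for interleukin-1 family members and receptor chains 6 were higher, beside 47.5% of all tested genes. Il1rn, among the 6, had no WT-LPS sample above 20. Il1b was 2063, 2768, 4704, 8381 and 8661 in Reversa, and WT-LPS had a lowest of 6.78, a median of 38.3 and a highest of 56.4 (151-fold higher). Il1a was 122-fold higher, and Il1rn, the antagonist that blocks the interleukin-1 receptor, at least 46.5-fold. Il1rap, the receptor's accessory chain, did not pass (log2 change 0.21, adjusted p = 0.23). Il6 was at least 105-fold higher and Il10, an anti-inflammatory cytokine, at least 18.7-fold. Ifng, the interferon of T and NK cells, was at least 17.2-fold higher, at 522, 746, 332, 156 and 238 in Reversa and 1 to 13.7 in WT-LPS. Il15, which sustains NK and memory T cells, was 3.27-fold higher and Il18, which induces interferon gamma, 1.904-fold. The subunit Il12a did not pass (adjusted p = 0.28), but without Reversa sample 52 it did (log2 change 0.78, adjusted p = 0.0040). Tnf, the tumour necrosis factor, was 15.1-fold higher (528, 1963, 568, 650.4 and 1421 in Reversa, 50.5 to 77.8 in WT-LPS). Ltb, a lymphotoxin chain, was lower, at 515, 98.3, 437, 303 and 159 in Reversa and 3608 to 4878 in WT-LPS (15.9-fold). Of the 6 TNF superfamily ligands 2 were higher, 2 lower and 2, Lta and Tnfsf14, did not pass, and the list's median of -0.02 turned positive under the rescaling by 4 reference genes. Of the colony stimulating factors Csf1, the macrophage factor, was higher, at 798 ± 146 in Reversa and 197 ± 41.95 in WT-LPS (4.06-fold). Csf2 was at least 3.43-fold higher, and like Csf3 it had no WT-LPS sample above 20.

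Of 6 type 17 genes on the panel Il17a, Il22 and Il23r were tested, and they spread widely between Reversa samples. All 3 had no WT-LPS sample above 20 and passed the filter only through other groups, so that they were higher follows from the filter. Il17a, which makes tissue cells release neutrophil chemokines, was 349, 90.6, 2283, 4446 and 8634 in Reversa, and WT-LPS had a lowest of 1, a median of 1.41 and a highest of 4.08. Il22, which acts on epithelial cells, was 580.2, 159, 2507, 4859 and 1892 in Reversa, with at most 4 in WT-LPS. Both were higher than WT-LPS in every Reversa sample, at least 61.5-fold for Il17a and at least 58.2-fold for Il22. Both Reversa samples of run 1 (51 and 52) were the lowest for both genes. WT+LPS had 225 to 602 for Il17a. Against WT+LPS neither gene passed (adjusted p = 0.17 and 0.32). Without Reversa sample 52 Il17a was at least 117.7-fold above WT-LPS, without 55/56 at least 37.8-fold, and Il22 without 52 at least 95.7-fold. Il23r, a receptor chain of the same pathway, was at least 1.55-fold higher, with 2.15 in sample 51 and 116 in 55/56, and at least 2.74-fold higher without sample 51.

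**Figure D3:**
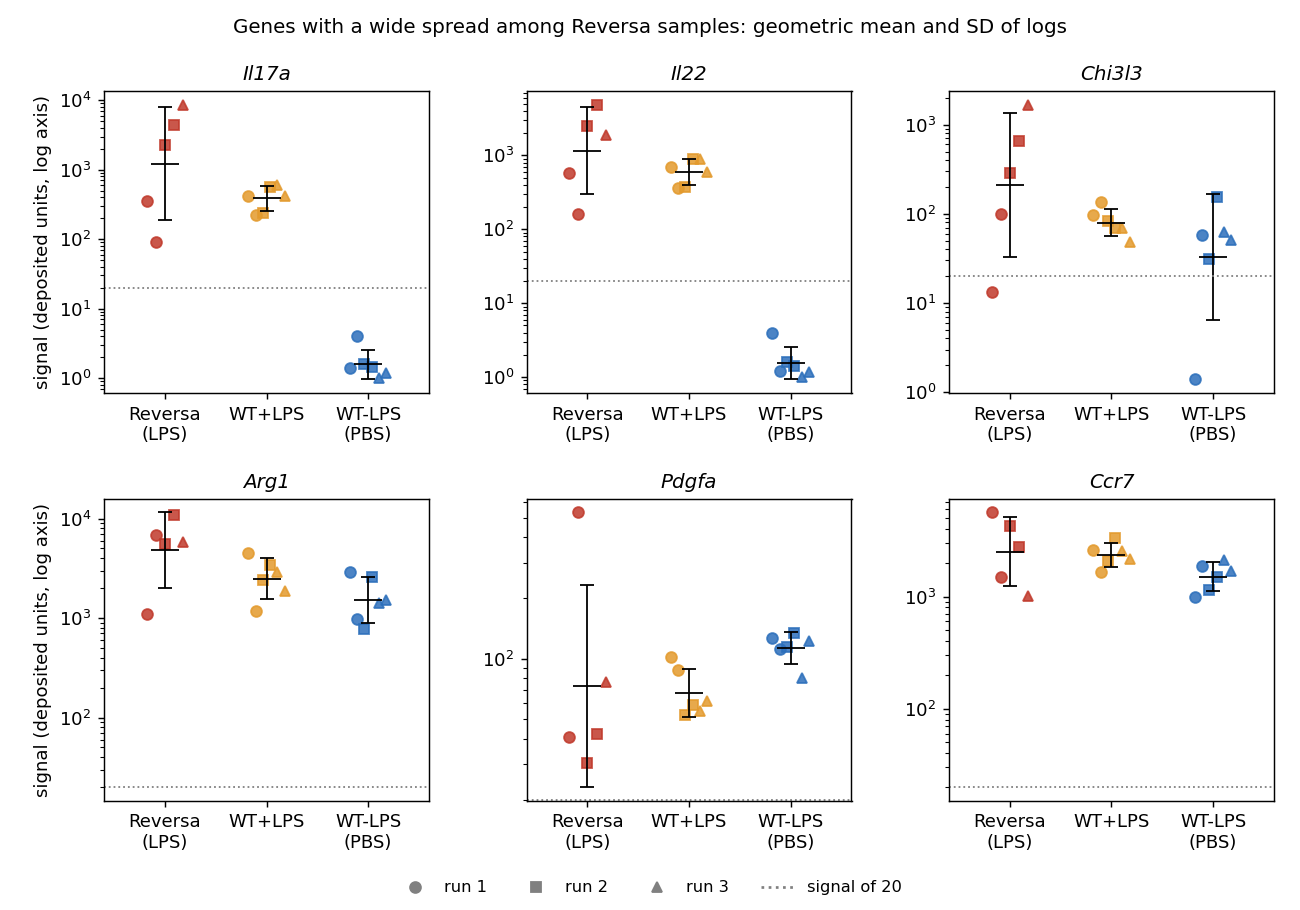
Signal (log axis) of 6 genes with a wide range in Reversa, in each Reversa, WT+LPS and WT-LPS sample, with symbols for the 3 runs, bars for the geometric mean and SD of the logs and a dotted line at 20. Il17a runs over 90.6 to 8634 in Reversa and 225 to 602 in WT+LPS, and Pdgfa has a single Reversa sample, 52, far above the others.

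The wide spread was not limited to these genes. Over the 143 tested genes with a signal above 20 in every sample, the median SD of the log2 signal was 0.479 in Reversa, 0.22 in WT+LPS and 0.232 in WT-LPS. The SD exceeded 0.5 in 65 genes in Reversa, 7 in WT+LPS and 19 in WT-LPS. Leaving out each Reversa sample in turn gave medians of 0.41 to 0.53. Pdgfa, a growth factor for fibroblasts, had the highest SD, with 40.8, 532, 30.3, 42.5 and 76.2 in Reversa and 80.1 to 133 in WT-LPS, and did not pass (adjusted p = 0.21). Without Reversa sample 52 it was lower (log2 change -1.32, adjusted p = 0.000155). With samples weighted by the spread of their group, the calls in Reversa against WT-LPS were 151, 90 higher and 61 lower, all of them among the 165.

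Interferon-stimulated genes were higher in 11 of 13 tested (47.5% over all tested genes), with a median log2 change of 3.88, beside 3.89 in WT+LPS. Ifit1, which binds foreign RNA ends, was 4720.2, 2102, 4468, 4451 and 3773 in Reversa and 27.8 to 77.8 in WT-LPS, 75.4-fold higher. Oasl1, an OAS-like protein, was 103-fold higher (6805 ± 2453 in Reversa, 64.97 ± 22.3 in WT-LPS, SD), and Ifit3 28.1-fold. Mx1 and Mx2, dynamin-like antiviral proteins, were 9.33-fold and 14.7-fold higher. Ifi44 was 31.4-fold higher, and its log2 change of 4.97 was 4.34 without WT-LPS sample 39. Hsh2d, an adaptor of lymphocytes, and Ifi27l2a did not pass (adjusted p = 0.065 and 0.27). Hsh2d was higher without 55/56 (log2 change 0.96, adjusted p = 0.0017), Reversa 52 (0.71) or WT-LPS 39 (0.72), and without sample 51 Ifi27l2a was lower (-0.63, adjusted p = 0.038). The transcripts of the type I interferons themselves were hardly detected, with Ifnb1 at 1.52 to 8.11 and Ifna1 at 1.01 to 19.6 in Reversa. Of the interferon regulatory factors and STATs 5 of 7 were higher, among them Irf7, which amplifies interferon production (16.4-fold), Irf1 (5.49-fold) and Stat2 (2.905-fold), while Irf5 (1.51-fold) was lower.

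For 8 of the 13 interferon-stimulated genes a promoter region was at hand, and, taking the first listed region of each, 3 held TTTC, any 2 bases and TTTC, the core of the interferon-stimulated response element, on either strand (3.45% of all 32544 regions). The regions of Cxcl10, the gene of the largest rise, and of Ifit1 are shown, with matches to this core and to the NF-kB motif, GGG, any 2 bases, TT, any base and CC (4.78% of all regions) in capitals.
Cxcl10 promoter, chr5:92348840-92349139, minus strand: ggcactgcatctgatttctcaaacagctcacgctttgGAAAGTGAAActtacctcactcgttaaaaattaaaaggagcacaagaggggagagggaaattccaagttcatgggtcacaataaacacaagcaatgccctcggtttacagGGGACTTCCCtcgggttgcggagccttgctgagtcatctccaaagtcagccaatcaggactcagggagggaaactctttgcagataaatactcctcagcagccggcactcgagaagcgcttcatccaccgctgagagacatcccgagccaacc
Ifit1 promoter, chr19:34640639-34640938, plus strand: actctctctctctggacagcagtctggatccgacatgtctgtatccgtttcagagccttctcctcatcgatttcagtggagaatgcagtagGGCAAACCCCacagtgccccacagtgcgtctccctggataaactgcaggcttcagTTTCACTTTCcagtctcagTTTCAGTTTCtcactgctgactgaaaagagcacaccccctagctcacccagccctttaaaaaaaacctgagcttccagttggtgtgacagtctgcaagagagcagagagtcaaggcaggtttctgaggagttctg
In Cxcl10 the capitals are GAAAGTGAAA, the response element core on the reverse strand, 213 bases before the start, and GGGACTTCCC, the NF-kB motif, 103 bases before it. In Ifit1 they are the NF-kB motif on the reverse strand, GGCAAACCCC, 159 bases before the start, and 2 response element cores, TTTCACTTTC and TTTCAGTTTC, 104 and 85 bases before it. Such matches describe the letters of a region and are no measurement of binding.

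In the pathway that senses LPS, receptors and signalling genes moved in both directions. Of 8 Toll-like receptors 1 was higher and 3 were lower, with a median of -0.45 that turned positive under the rescaling by 4 reference genes. Over all tested genes 47.5% were higher and 34.2% lower. Tlr3, a receptor for double-stranded RNA, was at least 4.101-fold higher (65.7, 82.9, 50.1, 83.2 and 153 in Reversa, at most 8.91 in WT-LPS). Tlr4 itself was 2.06-fold lower, at 336, 473, 573, 821 and 824 in Reversa and 967 to 1433 in WT-LPS with no overlap. Tlr8, an endosomal receptor of the same family, was 6.64-fold lower, and Tlr6, a partner of Tlr2, 1.81-fold lower with overlapping samples. Tlr1, Tlr2, Tlr7 and Tlr9 did not pass (adjusted p = 0.059, 0.25, 0.077 and 0.08). These 4 depended on single samples: without Reversa sample 51 Tlr2 was higher (log2 change 0.65, adjusted p = 0.0094) and Tlr9 lower (-0.74, adjusted p = 0.0082; also without Reversa 53 or WT-LPS 40), without 55/56 Tlr7 was higher (0.61, adjusted p = 0.018), and Tlr1 was lower without any one of 5 samples (Reversa 51, 53 or 54, WT-LPS 37 or 38), with adjusted p of 0.0249 to 0.0435. Of 7 adaptors and NOD-like receptors 5 were higher, among them Nlrp3, the sensor of an inflammasome (5.81-fold), Myd88 (2.75-fold) and Nod2, a sensor of peptidoglycan (2.9-fold). Nod1 did not pass (adjusted p = 0.69).

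Among the NF-kB genes 7 of 10 were higher, 2 lower and 1, the kinase Map3k7, did not pass, with a median log2 change of 0.68 that turned negative under equal medians. The shares over all tested genes, for this and the next lists, were 47.5% higher and 34.2% lower. Tnfaip3, a feedback inhibitor of NF-kB, was even across samples, at 12238, 11889, 12713, 13175 and 15478 in Reversa and 356 to 565 in WT-LPS (29-fold higher). Bcl2l1, a survival gene, was 3.35-fold higher and the subunit Relb 2.46-fold. Ripk1, a kinase of TNF receptor signalling, was 1.802-fold lower. Of 7 genes of the p38 branch 5 were lower and 2 higher. Map2k6, an activator of p38, had 3.01, 10.3, 1.52, 1.13 and 7.81 in Reversa and 103 to 187 in WT-LPS, at least 6.64-fold lower. Only WT-LPS samples carried Map2k6 past the filter, so that it was lower follows from the filter. Mapk14, which is p38 alpha, was 4.105-fold lower, its substrate Rps6ka5 4.39-fold lower, and Mapk3 of the ERK branch 5.13-fold lower. In the ERK branch 1 of 9 was higher, 4 lower and 4 did not pass (among them Elk1, Grb2 and Hras1), with a median of -0.34 that turned positive under the rescaling by 4 reference genes. Elk1 was lower without WT-LPS sample 40 (log2 change -0.50, adjusted p = 0.0406). Of 7 AP-1, CREB, CEBP and MYC factors 5 were higher, with Jun at 2079 ± 692 in Reversa and 335 ± 105 in WT-LPS (6.13-fold) and Myc 3.65-fold higher. Fos and Creb1 did not pass (adjusted p = 0.056 and 0.077), though Fos was higher without WT-LPS sample 38 (log2 change 0.76, adjusted p = 0.0047) or without Reversa 55/56 (0.66, adjusted p = 0.029). Maff, a small MAF protein, was at least 14.7-fold higher, and Hif1a, the hypoxia-inducible factor that drives glycolytic genes, 5.72-fold higher. Of 15 G proteins, kinases of the PKC family and cytoskeletal kinases 11 were lower, with a median of -0.89, among them Rac1, a small GTPase (1.98-fold), and Prkcb (2.36-fold), while Gnb1 and Rapgef2 did not pass.

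**Figure D4:**
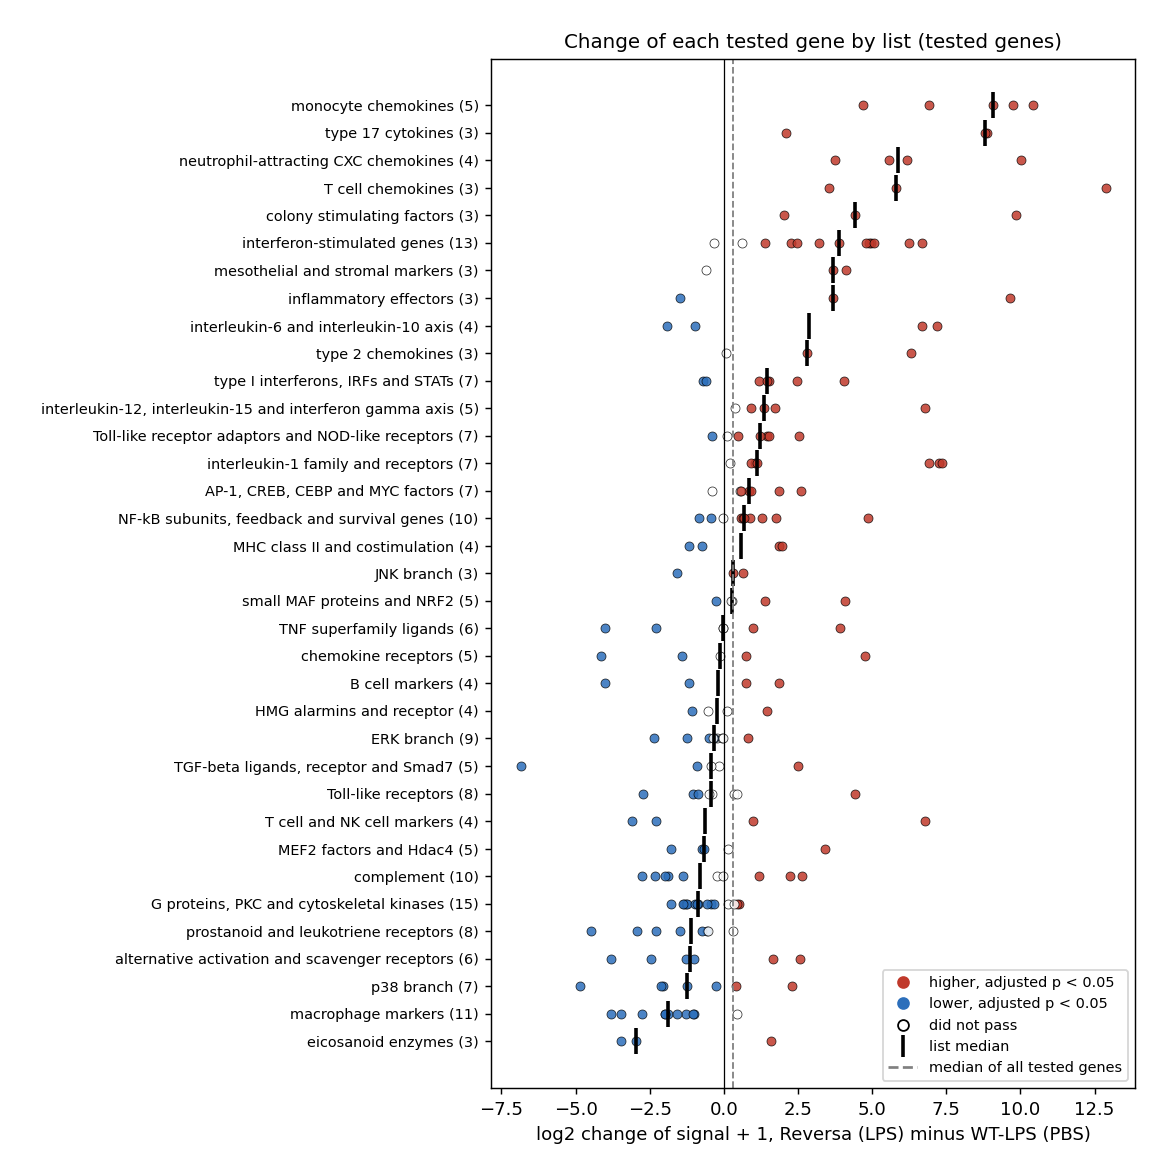
Log2 change of each tested gene in Reversa against WT-LPS, by gene list in order of the list median (number of tested genes in brackets), with filled points for genes that passed, open points for the others, black bars for list medians and a dashed line at the median of all tested genes, 0.33. Monocyte chemokines lie at the top, where the WT-LPS signals of 3 of the 5 genes were mostly under 20, and eicosanoid enzymes and macrophage markers at the bottom with -2.95 and -1.90.

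Genes of the eicosanoid pathway other than the exchanged ones were mostly lower. Alox15, a lipoxygenase, had 1698, 1506, 3018, 4507 and 6326 in Reversa and a lowest of 25041, a median of 35707 and a highest of 37348 in WT-LPS, 11.03-fold lower. Alox5, the first enzyme of leukotriene synthesis, was 7.71-fold lower. Pla2g4a, the phospholipase that releases arachidonic acid, was higher, at 469, 796, 685, 975 and 1514 in Reversa and 220.5 to 320.3 in WT-LPS (3.01-fold). Of the 8 receptors tested 6 were lower, beside 34.2% of all tested genes. Tbxa2r, the thromboxane receptor, was under 4 in every Reversa sample and at 40.1 to 86.1 in WT-LPS (at least 3.24-fold lower). Only WT-LPS samples carried Tbxa2r past the filter, so that it was lower follows from the filter. Ptger2, a receptor of prostaglandin E2, was 4.902-fold lower, and Cysltr1, a receptor of cysteinyl leukotrienes, 7.697-fold. Cysltr2 did not pass (adjusted p = 0.077), but was lower without WT-LPS sample 37 (log2 change -0.62, adjusted p = 0.046). Ptger3, another receptor of prostaglandin E2, did not pass either, at 8.16 to 49.9 in Reversa and 9.28 to 40.3 in WT-LPS, and without Reversa sample 51 it was higher (0.70, adjusted p = 0.049).

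Macrophage markers were lower in 10 of the 11 tested, with a median log2 change of -1.90, beside -1.29 in WT+LPS, where 8 were lower. Over all tested genes 34.2% were lower in Reversa, and 34.2% in WT+LPS. Each of the 11 was above 20 in every WT-LPS sample, and in Reversa all but Trem2 were. C1qa, a chain of complement C1q, had 2387, 3549, 3414, 4844 and 5844 in Reversa and a lowest of 19966, a median of 26496 and a highest of 31217 in WT-LPS, 6.82-fold lower with no overlap, and C1qb was 3.72-fold lower. The adaptor Tyrobp and the complement receptor C3ar1 were 3.96-fold and 3.92-fold lower. Trem2, a lipid receptor that signals through Tyrobp, had 8.16, 34.5, 13.5, 9.62 and 26.1 in Reversa and 116 to 310.5 in WT-LPS (at least 9.91-fold lower). The summed signal of the 11 markers was 22358 to 50437 in Reversa, 39779 to 70342 in WT+LPS and 122068 to 166240 in WT-LPS. The exception among the 11, Tlr7, is described above. In such bulk RNA, fewer macrophages and less marker RNA per macrophage cannot be told apart.

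Other cell types were followed by their own markers, whose part in these changes was not tested. The summed signal of 3 neutrophil markers was 18.2 to 312 in Reversa and 63.7 to 229 in WT-LPS, with Cxcr1 at or under 2.86 in every Reversa sample, Cxcr2 higher and the protease Mmp9 lower (log2 change -1.49, or -0.80 without Reversa sample 51). That of 6 T cell and NK cell markers was 252 to 783 in Reversa and 239 to 433 in WT-LPS, with Ifng higher and Cd4 (8.58-fold) and Cd40lg (at least 3.09-fold) lower. That of 4 B cell markers, of which Cd40 and H2-Eb1 are also made by macrophages, was 8679 to 27584 in Reversa and 23960 to 36692 in WT-LPS. Most of this sum was H2-Eb1. Of the 4, Cd40 and Ccr7 were higher, the latter with the unstable call given above, and Ltb and H2-Eb1 were lower. For 7 mesothelial and stromal markers it was 128 to 664 in Reversa and 95.8 to 154 in WT-LPS, with Flt1 and Areg higher (at least 3.62-fold and at least 1.46-fold), C7 at or under 2.86 in every Reversa sample and the highest sum, of sample 52, due mostly to Pdgfa. For 4 mast cell and eosinophil markers it was 62.4 to 300 in Reversa and 9.37 to 34.0 in WT-LPS, with Il5 and Il13 higher and Ccr3, the eosinophil receptor, at 2.86 to 33.4 in Reversa and 2.87 to 29.2 in WT-LPS. Most of this sum in Reversa was Il5 and Il13, which are also type 2 cytokines, so the sum is not specific to these cells. Cxcr2, Ifng, Flt1, Areg, Il5 and Il13 had no WT-LPS sample above 20, so that these markers were higher follows from the filter.

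The genes of alternative activation split. Retnla, a marker of this state in the mouse, had 6969.8, 12947, 11456, 17124 and 4640.1 in Reversa and a lowest of 39683, a median of 54333 and a highest of 75425 in WT-LPS, 5.52-fold lower. The mannose receptor Mrc1 (2.43-fold) and the haemoglobin scavenger receptor Cd163 (2.03-fold) were also lower, with overlapping samples. Arg1, an arginase that competes with Nos2 for arginine, was 3.18-fold higher, at 1099.9, 6794, 5542, 10857 and 5836 in Reversa and 767 to 2915 in WT-LPS. Chi3l3, a chitinase-like protein, was 13.3, 99.4, 286, 649 and 1674 in Reversa and 1.39 to 155 in WT-LPS (5.904-fold higher, adjusted p = 0.014). The call of Chi3l3 was lost without Reversa 55/56 (adjusted p = 0.072) or WT-LPS sample 37 (0.051), and without Reversa sample 51 its log2 change was 3.54 instead of 2.56. In WT+LPS neither Arg1 nor Chi3l3 passed against WT-LPS, and between Reversa and WT+LPS neither did (adjusted p = 0.27 and 0.38), so a difference between the genotypes was not shown.

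Among the other immune genes, Tgfb2 had the largest fall on the panel, to 13.3, 73.01, 13.5, 10.8 and 13.4 in Reversa, against 1302 to 2974 in WT-LPS (at least 85.6-fold lower). The receptor Tgfbr1 was 1.86-fold lower, while Tgfb1, the main macrophage form, and Smad7, a feedback inhibitor, did not pass (adjusted p = 0.24 and 0.098), and Smad7 was lower without Reversa sample 51 (adjusted p = 0.0409) or WT-LPS 37 (0.0305). Complement held 3 genes higher, 5 lower and 2, C3 and C1ra, that did not pass, beside 47.5% higher and 34.2% lower over all tested genes. Cfb, factor B of the alternative pathway, was 4.701-fold higher, at 7438 to 25499 in Reversa and 1689 to 6338 in WT-LPS, and Cd55, which dissolves the C3 convertase, was 5.05-fold lower. The costimulatory genes Cd40 (3.66-fold) and Cd86 (3.93-fold) were higher and the MHC class II gene H2-Eb1 (2.24-fold) lower. Of the chromatin proteins released as alarmins, Hmgb1 was 2.11-fold lower (881 ± 313 in Reversa, 1762 ± 141 in WT-LPS) and Hmgb2 at least 1.92-fold higher. Hmgn1 and the receptor Ager did not pass, and Ager was lower without WT-LPS sample 37 (log2 change -0.96, adjusted p = 0.0214). Of the MEF2 factors Mef2b was at least 2.24-fold higher and Mef2d 1.58-fold lower, and Hdac4, their repressor, did not pass (adjusted p = 0.4). Mafg and Nfe2l2, which is NRF2, did not pass (adjusted p = 0.36 and 0.084).

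The genes that differed between Reversa and WT+LPS show where the Reversa change from WT-LPS departed from that of wild type, and Ptgs2 led them. Ccl5 had 13339, 18018, 15679, 20052 and 26076 in Reversa, while WT+LPS had a lowest of 37795, a median of 40446 and a highest of 47793, 2.31-fold lower in Reversa with no overlap (limma adjusted p = 0.00051). Its log2 change against WT-LPS was 3.55 in Reversa and 4.76 in WT+LPS. Cxcl9 was 355, 1724, 350.2, 425 and 997 in Reversa and 1816 to 3969.8 in WT+LPS (4.36-fold lower, adjusted p = 0.0091). Il18rap, a chain of the interleukin-18 receptor, was 71.7 to 174 in Reversa and 215 to 367 in WT+LPS, also without overlap (2.32-fold lower, adjusted p = 0.0091). These 3 genes were higher than in WT-LPS in both LPS-treated groups, and less so in Reversa. Without PBS-treated Reversa samples, a difference in resting level and a difference in the response to LPS cannot be told apart, here and below.

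Several genes that were lower in WT+LPS than in WT-LPS were lower still in Reversa. Tlr8 had log2 changes of -2.73 in Reversa and -1.05 in WT+LPS (3.21-fold lower in Reversa, adjusted p = 0.0012), and its samples overlapped between the genotypes. Trem2 had 8.16 to 34.5 in Reversa and 29.4 to 81.6 in WT+LPS (at least 2.22-fold lower, adjusted p = 0.0065). C1qa had -2.77 in Reversa and -1.85 in WT+LPS (adjusted p = 0.016), and C1qb -1.90 in Reversa and -1.13 in WT+LPS (adjusted p = 0.03). Retnla belonged to the same set, with -2.47 in Reversa and -1.28 in WT+LPS (adjusted p = 0.018). Gnaq, the alpha subunit of the G protein Gq, was 463, 484, 503, 526 and 599.7 in Reversa and 665 to 946 in WT+LPS, without overlap (adjusted p = 0.0033), and Plcb1, a phospholipase C that Gq activates, had log2 changes of -1.78 in Reversa and -0.87 in WT+LPS (adjusted p = 0.026).

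In Ptger3, Rapgef2 and Tlr6 the change against WT-LPS passed in only one of the genotypes. Ptger3 rose in WT+LPS (log2 change 1.68), had 0.30 in Reversa and differed between them (2.6-fold lower in Reversa, adjusted p = 0.016). Rapgef2, an exchange factor for the GTPase Rap1, rose in WT+LPS (0.98) and had 0.33 in Reversa (adjusted p of the difference 0.019). Without Reversa sample 51 Rapgef2 passed against WT-LPS (0.44, adjusted p = 0.031), as it did without WT-LPS sample 38 (0.43, adjusted p = 0.035). Tlr6 was lower in Reversa (-0.86) and had 0.04 in WT+LPS (adjusted p of the difference 0.02).

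The 3 genes above WT+LPS were Il5, Il13 and Hspb1. Il5, the growth factor of eosinophils, was 82.03, 147, 68.4, 36.8 and 26.3 in Reversa, and WT+LPS had a lowest of 1.6, a median of 14.4 and a highest of 39.3, at least 2.74-fold higher in Reversa (adjusted p = 0.016). Il13, which drives alternative activation, was 43.4, 76.3, 34.9, 34.5 and 19.3 in Reversa and 1.84 to 18.4 in WT+LPS, with no overlap (at least 1.94-fold higher, adjusted p = 0.00051). In WT-LPS both were under 2 in every sample, so that both were higher than there follows from the filter. For Il13 no WT+LPS sample was above 20 either, and it passed the filter only with its Reversa samples. Its difference from WT+LPS, with the adjusted p and the lack of overlap, is therefore no support for a direction. Hspb1, a small heat shock protein acted on by the p38 branch, was 328, 229, 213, 80.9 and 87.4 in Reversa, 41.2 to 84.99 in WT+LPS and 15.1 to 59.9 in WT-LPS (adjusted p = 0.016 against WT+LPS).

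**Figure D5:**
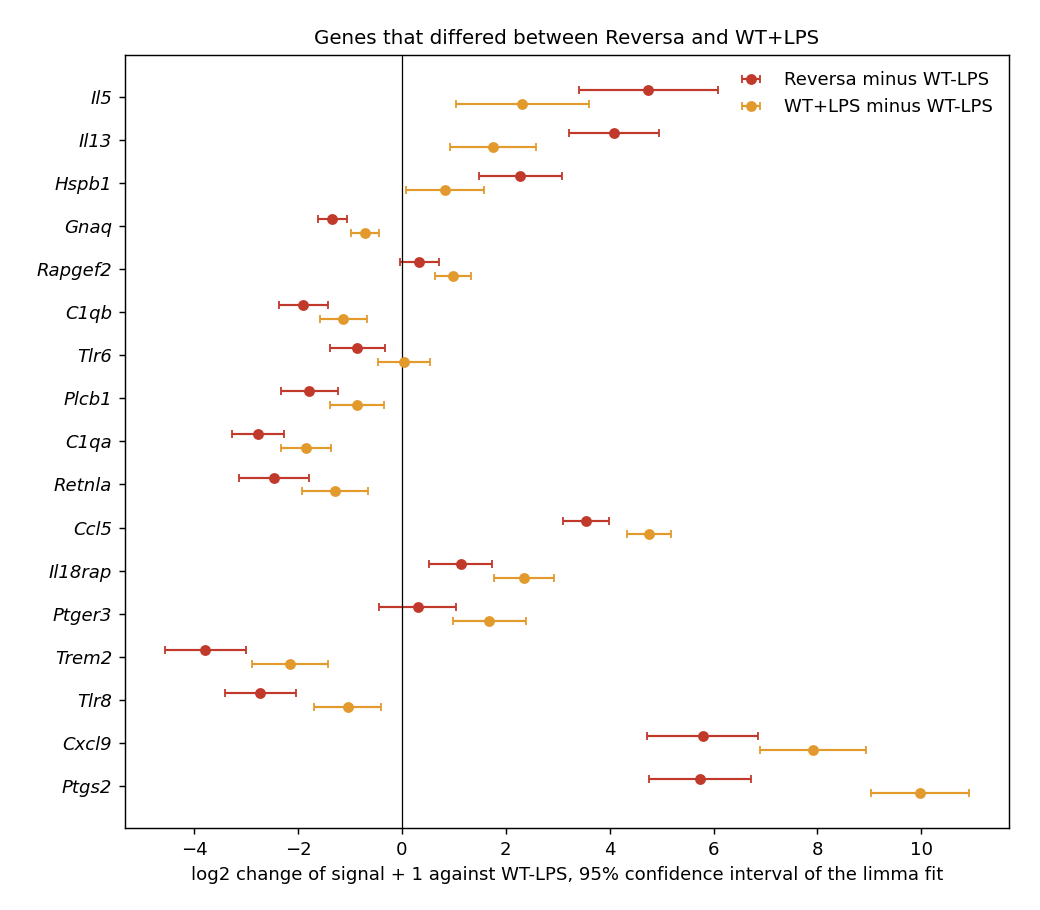
Log2 change against WT-LPS, with 95% confidence intervals of the limma fit, in Reversa and in WT+LPS for the 17 genes that differed between these 2 groups, in order of the difference. Il5, Il13 and Hspb1 at the top are higher in Reversa, and Ptgs2 at the bottom is lower. For Il5, Il13, Cxcl9 and Ptgs2, most WT-LPS samples were under 20, as were most Reversa samples for Trem2, and these plotted changes depend on the floor and the pseudocount.

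The count of 17 moved with single Reversa samples. Without Reversa sample 51 it was 9, without 55/56 it was 23, and with samples weighted by the spread of their group it was 6 (Ptgs2, Ccl5, Il13, Tlr8, Gnaq and Trem2). Within runs 1, 2 and 3 it was 9, 5 and 9. The genes lost without sample 51 were Ptger3, C1qa, Hspb1, Il5, Retnla, Rapgef2, Tlr6, Plcb1 and C1qb, with adjusted p of 0.0556 to 0.116. Without WT+LPS sample 51 it was 12, without C1qb, Il5, Plcb1, Rapgef2, Retnla and Tlr6. The calls of C1qb, Il5, Plcb1, Rapgef2, Retnla and Tlr6 were each also lost without at least 1 other sample.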

How the data were processed

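Peritoneal macrophage RNA with an integrity number of 7.0 or more, adjusted to 20 ng/µl per the labels' protocols, was measured on an nCounter panel of 248 target and 6 reference genes. The authors deposited 1 signal for each gene in each sample, and the software and steps are not given in the sources used here. The values themselves show a background removed per lane, a floor of 1 and a scaling to a geometric mean of Cltc and Gapdh of 8147.9 in every lane. Tables of 268 and 266 rows were equal in all 266 shared rows, and 0 columns had no sample. With the background removed, whole counts could not be restored, so the tests on counts that were foreseen for such values were not used. Groups come from the labels, which describe 6 mice per group, and p-values measure the spread between these samples. All 254 gene names matched RefSeq (GRCm38.p6), 7 under another name.

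For 202 genes above 20 in at least 6 samples, log2(signal + 1) was fitted with limma 3.58.1 in R 4.3.3, with 1 mean for each of the 5 groups over 29 samples, Reversa 55 and 56 averaged. The 46 other target genes were not tested. Tests were two-sided with Benjamini-Hochberg adjustment over the 202 genes at 0.05, and every adjusted p printed without another name comes from this fit. Ptgs1 and Ptgs2 were also tested by exact permutation over all arrangements of the samples. The chi-square of sample pairs used scipy 1.17.1. This permutation, the summaries and the figures used Python 3.11.15, numpy 2.4.6, pandas 2.3.3 and matplotlib 3.10.9. On simulated data for Reversa against WT-LPS with 39 of 202 genes changed, 40.8% of 1.5-fold, 71.5% of 2-fold and 95.8% of 4-fold changes were recovered, and 3.4% of calls were false. The simulation gave every group the same spread, had no floor and changed fewer genes than the 165 called here. In the data the median SD of the log2 signal was 0.479 in Reversa and 0.232 in WT-LPS. These rates therefore check the code and do not give the error rates of this comparison. Alternatives varied the scaling, filter, pseudocount, samples, run, replicate block, variance prior and group weights.

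The members and gene lists were chosen with earlier results of these data known. Named genes were the exchanged and reference genes, the 12 highest and 12 lowest changes among the calls, up to 3 genes of smallest p and the genes that did not pass in each list, and the genes that differed from WT+LPS. Arg1, C3ar1, C7, Cd163, Cfb, Chi3l3, Cxcl5, Cxcr1, Hif1a, Ifi44, Ifit3, Ifna1, Ifnb1, Irf5, Mx1, Mx2, Prkcb and Ripk1 were named after their values were seen. Some genes are not reported here.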

Additional observations from a re-analysis of the deposited data

Results flagged for a closer look

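A value was singled out where its gap to that of the nearest other sample of its group, divided by the range of the group, passed Dixon's 95% critical value. Chance alone singles out about 1 in 20 groups. Over the 144 genes the text names, 8 values were singled out in Reversa, all from sample 52 or the pair 55/56, 8 in WT+LPS and 10 in WT-LPS.

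In Reversa, sample 52 stood above the others in 6 genes. It had 531.7 for Pdgfa, where the others had 30.28 to 76.22, and 73.01 for Tgfb2, where the others had 10.75 to 13.52. It also had 410.7 for Mapk3, 2569 for Il1rn, 2129 for Tubb5 and 33.41 for Ager. The averaged pair 55/56 stood above the others with 13060 for Ccl4 and 531.2 for Nod2. In WT+LPS, sample 51 stood apart with 586.3 for Fos, 627.7 for Il1rap and 2126 for Rapgef2. Sample 52 did so with 3280 for C3, sample 54 with 1934 for Jun, sample 55 with 61.69 for Csf2 and 321.5 for Mafg, and sample 56 with a low 2796 for Cd40. In WT-LPS, sample 38 stood above the others with 3153 for C3, 672.2 for Fos, 4994 for Irf1, 536.9 for Jun and 1674 for Nfe2l2. Sample 40 did so with 30.69 for Ptgs2 and 77.79 for Tnf. Sample 39 had 10380 for Cltc and 6395 for Gapdh, the references whose geometric mean is held constant, and sample 37 had a low 1047 for Ccl5.

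The change against WT-LPS differed between Reversa and WT+LPS in 17 genes by limma's test of the difference. Reversa was lower by log2 differences of -4.229 in Ptgs2, -2.124 in Cxcl9, -1.683 in Tlr8, -1.63 in Trem2, -1.379 in Ptger3, -1.217 in Il18rap and -1.209 in Ccl5. It was also lower in Retnla (-1.183), C1qa (-0.9205), Plcb1 (-0.9157), Tlr6 (-0.8999), C1qb (-0.7652), Rapgef2 (-0.6515) and Gnaq (-0.6245). It was higher in Il5 (2.426), Il13 (2.336) and Hspb1 (1.45), of which Il13 passed the filter only with its Reversa samples.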

How the results depend on the processing

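In Reversa against WT-LPS the number of genes called stayed within 1.5 times of 165 under every alternative run. It lay at 111 (of the 143 genes with a signal above 20 in every sample) to 175 (equal medians), and at 156 to 167 without any one sample. All 111 calls that could be tested among the 143 genes were kept. The median log2 change of all tested genes was 0.12 with equal totals, 0.21 with all 6 reference genes, 0.90 with Cltc, Gusb, Hprt and Tubb5, -0.49 with equal medians, -0.0169 for genes above 20 in every sample, 0.48 in run 2 alone and 0.13 in run 3 alone, and 0.26 to 0.36 without any one sample. In WT+LPS against WT-LPS the count was 111 in run 1 alone. In Reversa against WT+LPS the count of 17 became 10 among the 143 genes with a signal above 20 in every sample and 9 with only the groups compared. It was 9, 5 and 9 in runs 1, 2 and 3 alone, 6 with samples weighted by the spread of their group (chosen after seeing the data), 9 to 19 without any one single sample and 23 without the pair 55/56. Ptgs2, Il13, Il5, Trem2, Cxcl9, Ptger3 and Hspb1, all among the 17, were not tested where a signal above 20 in every sample was required. The cause of the other shifts was not tested. Of the 165 calls against WT-LPS 153 kept their sign with equal medians, 157 with Cltc, Gusb, Hprt and Tubb5, and 159 in run 3 alone. Listed next are only the genes named in the text whose log2 change turned sign and passed the threshold in the values as deposited or under the alternative. With equal medians they were Ccl24 (-0.75), Ccr7 (-0.0748), Gnb1 (-0.69), Hdac4 (-0.66), Hmgn1 (-0.72), Il1rap (-0.60), Nfe2l2 (-0.57), Nod1 (-0.70) and Rapgef2 (-0.49). With the 4 references they were Lta (0.54), Map3k7 (0.56) and Tgfb1 (0.39). In run 3 alone, with 1 Reversa sample, they were Ccr7 (-0.91), Hdac4 (-0.56), Hmgn1 (-0.97), Hsh2d (-0.88) and Tlr6 (0.067), and against WT+LPS C1qb (0.00196), Plcb1 (0.0377) and Tlr6 (0.0187). The replicate numbers did not pair the samples: correlations of same-numbered Reversa and WT+LPS samples were -0.318 to 0.139, and Reversa and WT-LPS share no number. A random replicate block gave 165 and 17 calls, and a fixed replicate block 12 in Reversa against WT+LPS. The exact tests of Ptgs1 and Ptgs2 kept their side of the threshold in the alternatives run. The values carry no counts as deposited, so tests on counts were not run. Depth limits genes near a signal of 20, where folds were given as bounds and fitted log2 changes depend on the floor and the pseudocount.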
